A study of Homo sapiens with 4 samples.

Results

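The genes described here are 36 neighbours at the end of the long arm of chromosome 12, in listed order from TMEM132C to ANHX. They were listed because many of them had lower intensities in 320-IWR cells than in COLO-320DM cells, so that comparison chose them. Its values for them are given as a description, and counts of calls among them stand beside those of all probe sets and support nothing. All 36 were found on the array, through 77 of the 54613 probe sets tested, against 19775 genes with a probe set of their own. COLO-320DM is a human colorectal cancer cell line whose growth depends on Wnt/β-catenin signaling. 320-IWR is the subline that grew out of it under continuous culture with IWR-1, an inhibitor of tankyrase, the poly(ADP-ribose) polymerase that marks Axin for destruction. Clones were drawn from 320-IWR only for other experiments, so the line is not stated to be 1 clone, and whether IWR-1 was in the medium at harvest is not stated. Total RNA of dishes near confluence was hybridised to 4 U133 Plus 2.0 GeneChips, 2 of 320-IWR and 2 of COLO-320DM. No source states whether the 2 arrays of a line came from separate dishes, so their spread may be technical and any p-value rests on that spread alone, and in an exact permutation test 2 against 2 arrays could not go below p = 0.333 (two-sided).

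The arrays themselves were alike. The median intensity was 41.6 and 41.1 on the 320-IWR arrays, against 41.8 and 41.0 on the COLO-320DM arrays. Pearson's r of log2 intensities, taken over probe sets and not over independent samples, was 0.991 within 320-IWR and 0.990 within COLO-320DM. Between the lines it was 0.987 for the replicate 1 arrays and 0.988 for the replicate 2 arrays. For arrays of different lines and different replicate numbers it was 0.983 and 0.980. Arrays of a line were thus little closer to each other than to the same-numbered array of the other line. The intestinal transcription factor CDX2 had intensities of 2723 and 2790 in 320-IWR cells, against 3403 and 3263 in COLO-320DM cells. Of the other intestinal markers, KRT20 was called higher in 320-IWR by limma, with 199 and 160.1 in 320-IWR cells, against 49.6 and 54.6 in COLO-320DM cells, a log2 difference of 1.78 (adjusted p of 0.0412), while CDX1 and VIL1 lay between 63.1 and 80.4 on all arrays. The 5 epithelial markers summed to between 541 and 546 in 320-IWR cells, against 1773 to 1874 in COLO-320DM cells, with KRT8 and KRT18 called lower in 320-IWR by limma (adjusted p of 0.0155 and 0.0322), while EPCAM, KRT19 and CDH1 lay between 11.1 and 35.1 on all arrays. The summed markers of leukocytes were 239 to 291 in 320-IWR cells and 201 to 244 in COLO-320DM cells. Those of fibroblasts were 285 to 296 in 320-IWR cells and 285 to 297 in COLO-320DM cells. The part of the keratin difference in the values below was not tested. In bulk RNA, fewer cells with a transcript and less of it per cell cannot be told apart.

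The end of the long arm of chromosome 12 is rich in genes that most cells use. RAN drives transport through nuclear pores, POLE is the catalytic subunit of the DNA polymerase of the leading strand, EP400 is an ATPase that exchanges histones in the TIP60 complex, and ULK1 is the kinase that starts autophagy. Next to the telomere lies a cluster of C2H2 zinc finger genes of the KRAB family, whose products bind DNA with tandem fingers and, through the KRAB domain, recruit the corepressor TRIM28 to silence chromatin. ZNF10, also called KOX1, gave the KRAB domain most used in engineered repressors. Just before the cluster stands CHFR, a mitotic checkpoint ubiquitin ligase with a zinc finger that binds poly(ADP-ribose), often silenced by promoter methylation in colorectal cancer.

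The promoters of CHFR, ZNF605, ZNF140 and ANHX are printed, and they were picked partly by the values of their genes. CHFR stands just before the zinc finger cluster, and ZNF605 had the lowest value of any of the 36 genes by its brightest probe set. ZNF140 was the only gene whose brightest probe set passed the call rule, and ANHX, the last of the 36, was at the same level in both lines. The sequences are RefSeq's, from GRCh38.p14, 250 bases before to 50 bases after the gene's start, 5′ to 3′ on the gene's strand. CHFR is at chr12:132887556-132887855 on the minus strand, ZNF605 at chr12:132956257-132956556 on the minus strand, ZNF140 at chr12:133080673-133080972 on the plus strand and ANHX at chr12:133235828-133236127 on the minus strand. Capitals mark every match, on either strand, to 4 motifs, the GC box GGGCGG, the CCAAT box CCAAT, the TATA box TATAAA and ACTACANNT, whose reverse complement is ANNTGTAGT. No match overlapped another in these windows.
CHFR: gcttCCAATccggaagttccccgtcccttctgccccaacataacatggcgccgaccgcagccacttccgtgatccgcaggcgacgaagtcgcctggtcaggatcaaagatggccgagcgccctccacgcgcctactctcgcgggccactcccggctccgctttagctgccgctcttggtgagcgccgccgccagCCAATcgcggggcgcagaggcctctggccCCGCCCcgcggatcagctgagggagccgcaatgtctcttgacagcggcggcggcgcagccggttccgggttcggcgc
ZNF605: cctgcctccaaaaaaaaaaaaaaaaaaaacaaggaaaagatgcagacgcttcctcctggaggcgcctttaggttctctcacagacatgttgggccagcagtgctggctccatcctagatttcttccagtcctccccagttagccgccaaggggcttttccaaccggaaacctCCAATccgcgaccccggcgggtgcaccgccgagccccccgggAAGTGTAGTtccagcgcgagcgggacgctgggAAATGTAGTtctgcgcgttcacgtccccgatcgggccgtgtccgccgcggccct
ZNF140: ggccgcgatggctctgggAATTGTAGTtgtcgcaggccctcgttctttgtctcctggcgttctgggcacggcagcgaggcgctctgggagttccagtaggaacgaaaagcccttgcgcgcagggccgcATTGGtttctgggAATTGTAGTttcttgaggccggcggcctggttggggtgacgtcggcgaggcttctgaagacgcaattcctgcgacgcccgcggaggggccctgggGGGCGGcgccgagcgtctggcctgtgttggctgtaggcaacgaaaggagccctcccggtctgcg
ANHX: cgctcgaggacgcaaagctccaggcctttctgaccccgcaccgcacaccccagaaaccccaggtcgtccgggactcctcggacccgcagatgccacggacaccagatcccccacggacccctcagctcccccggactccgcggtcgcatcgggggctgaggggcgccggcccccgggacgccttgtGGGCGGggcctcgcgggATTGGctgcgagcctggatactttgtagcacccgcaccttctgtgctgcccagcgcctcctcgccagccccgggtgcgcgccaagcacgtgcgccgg
ZNF605 and ZNF140 each hold ACTACANNT at 2 places, and CHFR and ANHX hold it at none. That motif was added after the sequences had been seen. It resembles part of the element bound by ZNF143, and a match in letters is not a bound site.

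Of the 36 genes, 30 had a promoter in the table, and they differed from the table at large in base composition. Their median GC content was 72.8%, against 58.3% over all 27305 promoters, and their median ratio of observed to expected CpG was 0.96, against 0.58. A ratio of at least 0.6 was found in 28 of 30, or 93.3%, against 49.0% of all promoters. The GC box was present in 24 of 30, or 80%, against 44.6% of all promoters, the CCAAT box in 10, or 33.3%, against 35.7%, and the TATA box in 0, against 11.95%. The windows hold 37 CpG in CHFR, 24 in ZNF605, 29 in ZNF140 and 33 in ANHX, so ANHX lay within the range of the others. Among the 7 zinc finger genes the motif ACTACANNT was present in 4 (ZNF605, ZNF26, ZNF140 and ZNF268), or 57.1%, against 11.6% of 398 other promoters of genes named ZNF and 3.89% of all promoters. These are counts of letters in promoters picked by the expression of their genes, with no test. ACTACANNT was itself added after the sequences had been seen, so nothing is read from its share. In 3 pairs the genes start back to back, DDX51 and NOC4L 138 bases apart, POLE and PXMP2 245 bases apart and ZNF891 and ZNF10 353 bases apart, and the windows of such pairs share sequence where they overlap.

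Each gene was read from its brightest probe set, and a probe set was called bright when its mean log2 intensity reached 6 in a line, an intensity of 64. No detection calls came with the intensities, so dim probe sets are kept apart below. A probe set could reach 64 in COLO-320DM alone, as that of ZNF10 did, so the group of bright genes partly depends on the comparison. Over all 19775 genes the median log2 difference, 320-IWR minus COLO-320DM, was 0.02. Over the 36 genes it was -0.55, with 30 of them lower in 320-IWR, and over their 27 bright genes it was -0.71. The difference was not even along the list. From TMEM132C to SFSWAP the 10 genes had a median of -0.07, and from MMP17 to ANHX the 26 genes had a median of -0.78. Dim genes were 6 of the 10 but 3 of the 26, so this contrast partly reflects brightness. Over bright genes alone the medians were -0.35 (4 genes) and -0.84 (23 genes). Of these, 3 of the 4 and 17 of the 23 were lower on both 320-IWR arrays. The boundary between SFSWAP and MMP17 was not found by any of the splits below. The 60 measured genes that precede TMEM132C had a median of 0.00, and the rest of chromosome 12 (999 genes) likewise 0.00.

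**Figure D1:**
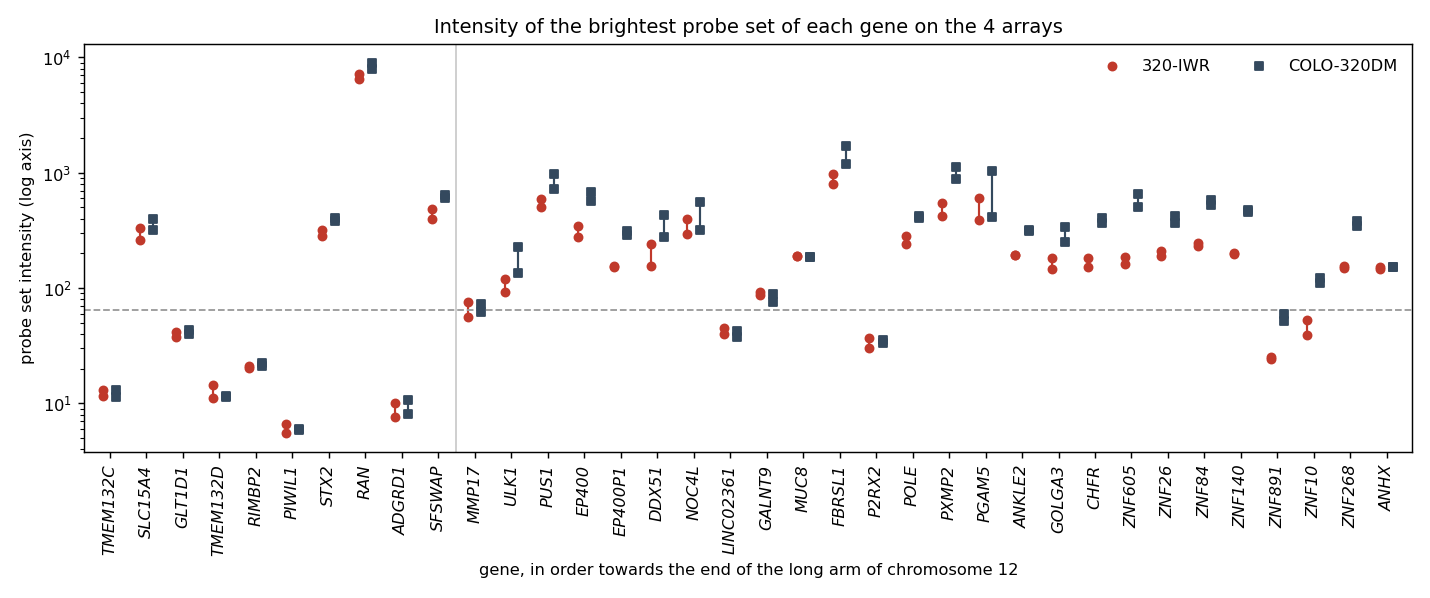
Intensity of the brightest probe set of each of the 36 genes on a log axis, with 320-IWR arrays as circles on the left and COLO-320DM arrays as squares on the right of each position, and lines joining the 2 arrays of a line. The dashed line is an intensity of 64 and the vertical line separates SFSWAP from MMP17. From CHFR to ZNF268 both 320-IWR arrays lie below both COLO-320DM arrays at every gene shown, and at ANHX the lines lie together.

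The groups of arrays did not overlap, with both 320-IWR arrays below both COLO-320DM arrays, for 21 of the 36 genes, and the same held for 17.5% of all genes. Among the 23 bright genes from MMP17 to ANHX it held for 17, against 21.9% of all bright genes. A log2 difference of -0.5 or less was found in 17 of these 23, against 8.57% of all bright genes, and of -1 or less in 8 of 23, against 3.07%. Since the comparison chose the genes, nothing is read from these shares. At an adjusted p under 0.05 with a 2-fold limit, limma called 4 of the 77 probe sets, 1 each of ANKLE2, ZNF26, ZNF84 and ZNF140, all lower in 320-IWR, where 0.370% of all probe sets were called in either direction and 0.258% lower. By brightest probe sets only ZNF140 was called, beside 0.399% of all genes called lower. The called probe set of ANKLE2 was its brightest in COLO-320DM but not over the 4 arrays together, so the reading of this gene depends on that choice. With any 1 of the 4 arrays left out, limma called 0 of the 77 probe sets, and 24 to 32 of them had an unadjusted p under 0.05, against 3453 to 4559 of all 54613 probe sets.

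The place where the shift starts depended on how it was sought. The least squares split of the 36 values lay after 22 genes, between P2RX2 and POLE, with means of -0.30 before it and -0.99 after it. Without 320-IWR replicate 1 it lay after PGAM5, and without COLO-320DM replicate 2 after GOLGA3. When the 60 preceding genes were included, the split lay between MMP17 and ULK1, with means of -0.01 before and -0.75 after. The 4 bright genes from TMEM132C to SFSWAP lay between -0.50 and -0.28 with a median of -0.35, whereas the 37 bright genes among the 60 preceding ones had a median of -0.01. From ULK1 to GOLGA3, a stretch chosen after its values were seen, the 14 bright genes had a median of -0.71, or 61.3% of the COLO-320DM level. From CHFR to ZNF268, also chosen after its values were seen, the 8 listed genes had a median of -1.22, and all 8 were lower on both 320-IWR arrays. The values of the last 2 stretches overlapped, since EP400 (-1.02) and PXMP2 (-1.05) in the earlier one lay below ZNF26 (-0.98) in the later one.

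**Figure D2:**
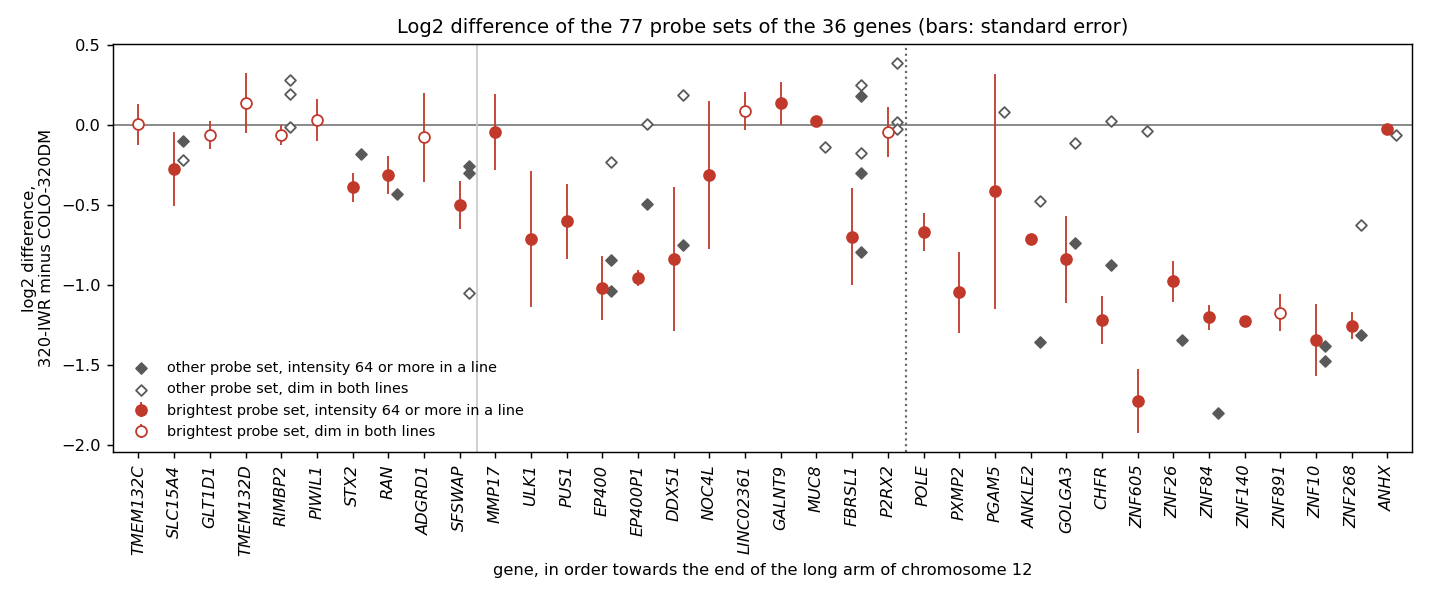
Log2 difference, 320-IWR minus COLO-320DM, of all 77 probe sets in gene order. Circles are brightest probe sets with standard errors of the difference (n = 2 arrays a line), diamonds are the other probe sets, open symbols are dim in both lines, the grey line separates SFSWAP from MMP17 and the dotted line is the least squares split after P2RX2. Filled circles scatter between -0.50 and -0.28 up to SFSWAP, between -1.05 and 0.13 from ULK1 to GOLGA3 and between -1.73 and -0.98 from CHFR to ZNF268, and ANHX sits at -0.03.

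The same values were also set beside those of the rest of the chromosome. In a running median of 11 neighbouring bright genes over the 612 bright genes of chromosome 12, the lowest value from TMEM132C on was -1.20, centred on ZNF26. Before TMEM132C the lowest was -0.37, centred on ZNF385A, and the highest anywhere was 0.19, centred on GAS2L3. The genes were listed for low values, so a running median over them had to be low and nothing is read from its depth. Array by array, the median of the 26 genes from MMP17 to ANHX, each gene taken relative to its COLO-320DM mean, was -0.92 and -0.70 on the 320-IWR arrays and 0.00 on both COLO-320DM arrays. For CHFR to ZNF268 it was -1.20 and -1.23 on the 320-IWR arrays, against 0.05 and -0.05 on the COLO-320DM arrays. The 320-IWR arrays thus differed from each other more over the stretch from MMP17 to ANHX than from CHFR to ZNF268. The COLO-320DM values mirror each other around 0 because each gene was taken relative to their own mean. Their nearness to 0 therefore shows no agreement of those arrays.

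**Figure D3:**
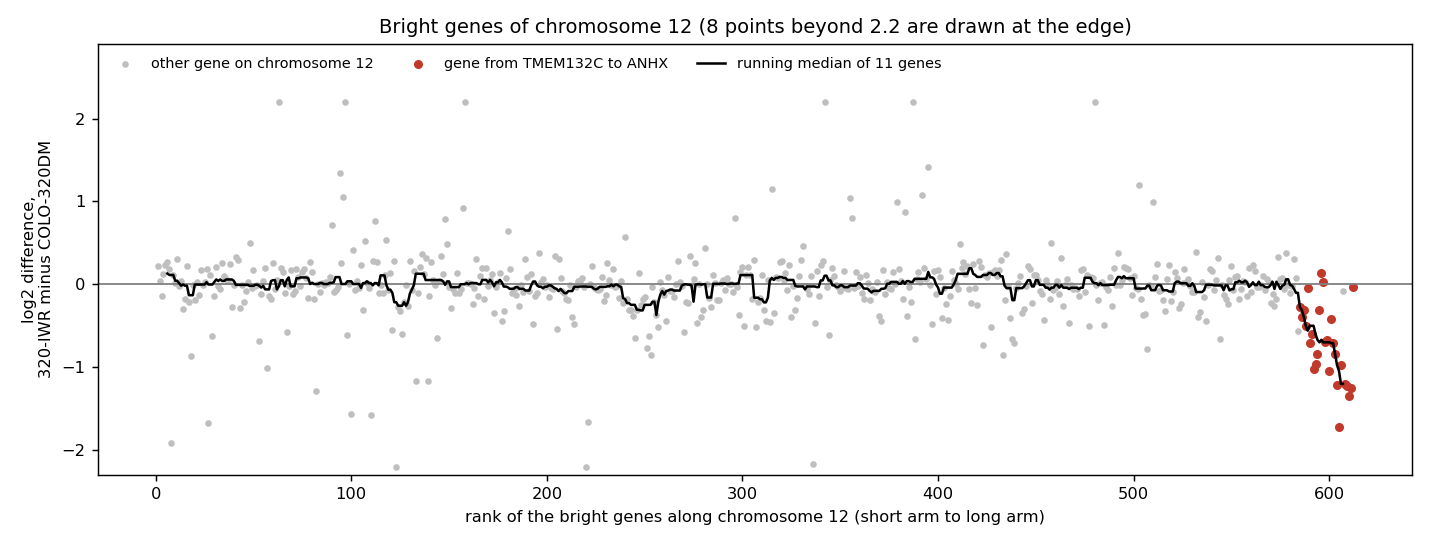
Log2 difference, 320-IWR minus COLO-320DM, of the 612 bright genes of chromosome 12 by rank from the short arm to the end of the long arm, with red points for the genes from TMEM132C to ANHX, grey points for the others and a black running median of 11 genes. The running median stays between -0.37 and 0.19 until TMEM132C and falls to -1.20 at the right end, while the last red point, ANHX, is at -0.03.

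The zinc finger cluster held the 4 lowest values of the 36 genes, those of ZNF605, ZNF10, ZNF268 and ZNF140. ZNF605 had intensities of 184 and 163 in 320-IWR cells, against 649 and 506 in COLO-320DM cells. Its log2 difference of -1.73 ± 0.20 (standard error, n = 2 a line, as for all differences below) leaves 30.2% of the COLO-320DM level. Each ± is the probe set's own standard error, whereas limma's p-values rest on an error moderated over all probe sets. Its other probe set was near the floor of the array, at 4.43 and 3.98 in 320-IWR cells, against 4.58 and 4.07 in COLO-320DM cells, which is near the lowest intensity of any array (3.51), so no difference could be read from it. ZNF140, a KRAB zinc finger gene, had 198 and 200.2 in 320-IWR cells, against 476 and 457 in COLO-320DM cells. The replicates of each line lay close together at ZNF140, and its log2 difference was -1.23 ± 0.03, or 42.7% of the COLO-320DM level. Limma's moderated error for ZNF140 was 0.12.

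ZNF84 was measured by 2 bright probe sets that were both lower in 320-IWR and differed in size. The brighter had 245 and 234 in 320-IWR cells, against 579 and 524 in COLO-320DM cells, a log2 difference of -1.20 ± 0.08. The other had 75.8 and 66.9 in 320-IWR cells, against 263 and 233 in COLO-320DM cells, a difference of -1.80 ± 0.13, which was the lowest of all 77 probe sets and 28.8% of the COLO-320DM level. ZNF26 likewise had 189 and 211 in 320-IWR cells, against 367 and 422 in COLO-320DM cells, a difference of -0.98 ± 0.13. Its second probe set, with 62.5 and 58.1 in 320-IWR cells, against 153 and 154 in COLO-320DM cells, gave -1.35 ± 0.05. At both genes the dimmer probe set had the larger difference, and the arrays of the lines did not overlap on either.

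ZNF10, the gene of the KOX1 repressor, had 53.1 and 39.6 in 320-IWR cells, against 111 and 123 in COLO-320DM cells. Its 3 probe sets gave log2 differences of -1.35 ± 0.22, -1.38 ± 0.16 and -1.48 ± 0.20, all within 1 standard error of each other. ZNF268, another KRAB zinc finger gene, had 149.7 and 154 in 320-IWR cells, against 383 and 342 in COLO-320DM cells. Its bright probe sets gave -1.25 ± 0.08 and -1.31 ± 0.34 and its dim one -0.63 ± 0.17. ZNF891, which starts back to back with ZNF10, was dim, with 25.1 and 24.2 in 320-IWR cells, against 60.1 and 51.5 in COLO-320DM cells, a difference of -1.17 ± 0.11. All 7 zinc finger genes were thus lower on both 320-IWR arrays, and their differences ran from -1.73 to -0.98. The genes of such a cluster are alike in sequence, so a probe set can take up transcript of a neighbour.

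Zinc finger genes elsewhere had a median near 0, and some of them were low as well. The 7 members had a median log2 difference of -1.23, the 418 other genes named ZNF a median of -0.06 and all genes a median of 0.02. Of the 418, 130 (31.1%) were lower on both 320-IWR arrays, against 17.5% of all genes, and of their 285 bright members 95 (33.3%), against 21.9% of all bright genes. A difference of -1 or less was found in 5 of 6 bright members of the cluster, in 19 of the 285 (6.67%) and in 3.07% of all bright genes. ZNF10, among these members, was bright in COLO-320DM only. Limma called 5 of the 418 (1.196%) lower at an adjusted p under 0.05 with a 2-fold limit, against 0.399% of all genes, and none of them higher. These were ZNF595, ZNF304, ZNF785, ZNF32 and ZNF709, named after their values were seen, with differences from -3.40 to -1.52 and none of them on chromosome 12. Whether these shares differ was not tested. The 4 other ZNF genes on chromosome 12 lay between -0.10 and 0.04. ANHX, an anomalous homeobox gene that is not a zinc finger gene and is the last of the list, had 153 and 146 in 320-IWR cells, against 154 and 152 in COLO-320DM cells, with a difference of -0.03 ± 0.03. Its second, dim probe set gave -0.07 ± 0.04.

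The genes for DNA, chromatin and mitosis were RAN, EP400, FBRSL1, POLE, ANKLE2 and CHFR, and all 6 were lower on both 320-IWR arrays, beside 17.5% of all genes and 21.9% of bright genes, with a median log2 difference of -0.71. CHFR had 152 and 181 in 320-IWR cells, against 364 and 408 in COLO-320DM cells, a difference of -1.22 ± 0.15 that leaves 43% of the COLO-320DM level. A second bright probe set gave -0.87 ± 0.06, and another, dim in both lines, was at 32.5 and 32.2 in 320-IWR cells, against 34.97 and 28.97 in COLO-320DM cells, a difference of 0.02 ± 0.14. EP400 had 277 and 342 in 320-IWR cells, against 569 and 684 in COLO-320DM cells, a difference of -1.02 ± 0.20 that leaves 49.4%. Its second probe set gave -0.84 ± 0.24, while another gave -1.04 ± 1.16 with arrays that overlapped, 65.5 and 241 in 320-IWR cells, against 160.3 and 415 in COLO-320DM cells. A dim probe set of EP400 gave -0.23 ± 0.67, also with arrays that overlapped.

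ANKLE2, which helps to rebuild the nuclear envelope after mitosis, had 192 and 194 in 320-IWR cells, against 315 and 317 in COLO-320DM cells, a log2 difference of -0.71 ± 0.01. Limma's moderated error for that probe set was 0.11. A second bright probe set had 145 and 162 in 320-IWR cells, against 383 and 401 in COLO-320DM cells, and gave -1.36 ± 0.09, while a dim one gave -0.48 ± 0.13. Without 320-IWR replicate 1 or replicate 2 that second probe set became the brightest, and the value of the gene was then -1.28 or -1.44. One probe set of ANKLE2 thus stood near the -0.71 of the middle stretch and the other below the -1.22 of the genes from CHFR to ZNF268. POLE had 241 and 283 in 320-IWR cells, against 409 and 422 in COLO-320DM cells, a difference of -0.67 ± 0.12. FBRSL1, a relative of the Polycomb-associated gene AUTS2, had 793 and 981 in 320-IWR cells, against 1197 and 1717 in COLO-320DM cells, a difference of -0.70 ± 0.30, which was -0.44 without COLO-320DM replicate 2. Of its 6 probe sets 4 were lower and 2 higher in 320-IWR, from -0.79 to 0.24, and the 2 higher ones did not exceed 69.7 on any array. RAN, nearer the start of the list, had 7202 and 6467 in 320-IWR cells, against 9022 and 7959.8 in COLO-320DM cells, a difference of -0.31 ± 0.12, and its second probe set gave -0.43 ± 0.03. RAN was thus lower on both 320-IWR arrays, at 80.5% of the COLO-320DM level.

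The genes for RNA and ribosome assembly were PIWIL1, SFSWAP, PUS1, DDX51 and NOC4L, of which 3 were lower on both 320-IWR arrays, beside the same 17.5% of all genes. SFSWAP, a regulator of splicing, had 397 and 484 in 320-IWR cells, against 603 and 638 in COLO-320DM cells, a log2 difference of -0.50 ± 0.15. Its 2 other bright probe sets gave -0.30 ± 0.33 and -0.26 ± 0.09, and a dim one gave -1.05 ± 0.16, with 24.2 and 21.01 in 320-IWR cells, against 50.7 and 43.0 in COLO-320DM cells. PUS1, a pseudouridine synthase of transfer RNA, had 509 and 595 in 320-IWR cells, against 725 and 966 in COLO-320DM cells, a difference of -0.60 ± 0.23, which was -0.40 without COLO-320DM replicate 2. DDX51, a helicase of the large ribosomal subunit's assembly, had 154 and 240.5 in 320-IWR cells, against 277 and 428 in COLO-320DM cells. Its differences were -0.84 ± 0.45 and -0.75 ± 0.43 in bright probe sets and 0.19 ± 0.12 in a dim one, and the first was -0.52 without 320-IWR replicate 1 and likewise without COLO-320DM replicate 2. NOC4L, which serves the small subunit's assembly, had 293 and 395 in 320-IWR cells, against 318 and 561 in COLO-320DM cells, so its lines overlapped. Its difference of -0.31 ± 0.46 turned to 0.10 without COLO-320DM replicate 2. Between arrays of the same replicate number NOC4L was lower in 320-IWR both times, though a shared number is not stated to mark a pair. PIWIL1, an Argonaute protein of the germline, was dim on all arrays, from 5.50 to 6.60.

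The genes for autophagy and mitochondria were ULK1 and PGAM5. ULK1 had 121 and 93.0 in 320-IWR cells, against 226 and 134 in COLO-320DM cells, a log2 difference of -0.71 ± 0.42, with no overlap of the lines but a wide spread within COLO-320DM. It was -0.34 without COLO-320DM replicate 1 and -1.09 without COLO-320DM replicate 2. PGAM5, a phosphatase of the mitochondrial membrane, had 389 and 609 in 320-IWR cells, against 411 and 1025 in COLO-320DM cells. Its difference of -0.42 ± 0.73 was smaller than its error and turned to 0.24 without COLO-320DM replicate 2, and its dim probe set gave 0.08 ± 0.11. With the arrays taken as unpaired, no difference could thus be read for PGAM5, a gene in the middle of the shifted stretch. Between arrays of the same replicate number it was lower in 320-IWR both times, 389 against 411 and 609 against 1025. Whether a shared number marks a pair is not stated.

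The 13 genes for membrane, secretory and synaptic functions had a median log2 difference of -0.06, with 7 of them bright. PXMP2, a channel of the peroxisomal membrane that starts back to back with POLE, had 420.1 and 542 in 320-IWR cells, against 875 and 1111 in COLO-320DM cells, a difference of -1.05 ± 0.25, or 48.4% of the COLO-320DM level. GOLGA3, a golgin of the Golgi membrane, had 146 and 181 in 320-IWR cells, against 249.9 and 339.9 in COLO-320DM cells, a difference of -0.84 ± 0.27, and its second bright probe set gave -0.74 ± 0.35. A dim probe set of GOLGA3 gave -0.11 ± 0.27 with arrays that overlapped. STX2, a syntaxin of membrane fusion, had 318 and 283 in 320-IWR cells, against 403 and 383 in COLO-320DM cells, a difference of -0.39 ± 0.09. Its second bright probe set had 139.9 and 184.9 in 320-IWR cells, against 177 and 188 in COLO-320DM cells, so that its lines overlapped, with a difference of -0.18 ± 0.21. By brightest probe sets these 3 of the 13 were lower on both 320-IWR arrays, or 23.1%, beside 17.5% of all genes. SLC15A4, a lysosomal transporter of histidine and peptides, had 261 and 329 in 320-IWR cells, against 319 and 395 in COLO-320DM cells, a difference of -0.28 ± 0.23 with overlapping arrays. It ran from -0.45 without 320-IWR replicate 2 to -0.11 without 320-IWR replicate 1, and its other bright probe set gave -0.10 ± 0.16.

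The bright genes GALNT9, MUC8 and MMP17 lay near 0 inside the stretch of lower genes. GALNT9, an enzyme that starts O-glycans, had 93.3 and 86.4 in 320-IWR cells, against 89.1 and 75.2 in COLO-320DM cells, a log2 difference of 0.13 ± 0.13. MUC8, a mucin, had 188 and 189.8 in 320-IWR cells, against 188 and 184 in COLO-320DM cells, a difference of 0.02 ± 0.01, with both 320-IWR arrays just above the others, by a probe set whose design allows matches to other genes. Limma's moderated error for MUC8 was 0.11. MMP17, a membrane-anchored metalloproteinase, had 75.1 and 56.6 in 320-IWR cells, against 73.4 and 61.8 in COLO-320DM cells, a difference of -0.05 ± 0.24 at an intensity near the limit of 64. P2RX2, an ATP-gated ion channel just before the least squares split, was dim at 37.1 and 30.1 in 320-IWR cells, against 35.5 and 33.4 in COLO-320DM cells, and its 4 probe sets ran from -0.04 to 0.39. The dim genes TMEM132C, GLT1D1, TMEM132D, RIMBP2 and ADGRD1 lay between -0.08 and 0.14, with no intensity above 43.2 in their brightest probe sets. RIMBP2, a scaffold of the synaptic active zone, had 4 dim probe sets from -0.06 to 0.28.

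The 2 non-coding members differed from each other. EP400P1, a pseudogene of EP400 next to it on the chromosome, had 153 and 156 in 320-IWR cells, against 310.4 and 290.2 in COLO-320DM cells, a log2 difference of -0.96 ± 0.05, or 51.5% of the COLO-320DM level. That is close to the -1.02 of EP400, and because pseudogene and gene are near-identical in sequence the probe sets of the pair may not be separate readings. Its other probe sets gave -0.50 ± 0.54 and 0.00 ± 0.08, the last being dim. LINC02361, a long non-coding RNA, was dim, with 39.7 and 44.6 in 320-IWR cells, against 42.0 and 37.4 in COLO-320DM cells, a difference of 0.09 ± 0.12.

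Read by probe set in place of gene, bright and dim probe sets had different medians. Of the 38 bright probe sets from MMP17 to ANHX, 35 were lower in 320-IWR and 28 (73.7%) lower on both arrays, beside 20.5% of all bright probe sets, with a median log2 difference of -0.84. Of the 19 dim ones, 11 were lower and 4 (21.1%) lower on both arrays, beside 12.9% of all dim probe sets, with a median of -0.04. Bright was set by the line with the higher mean, so a probe set lower in 320-IWR could pass through COLO-320DM alone. Those of ZNF10 did, and nothing is read from this contrast. Among bright probe sets the size did not simply follow intensity, since RAN, the brightest, was at -0.31, ANHX and MUC8 lay near 0, and at ZNF84 and ZNF26 the dimmer of both had the larger difference. Of the 21 genes with several probe sets, 13 had every probe set lower in 320-IWR, and 8 (RIMBP2, EP400P1, DDX51, MUC8, FBRSL1, P2RX2, PGAM5 and CHFR) had probe sets of both signs. Of the dim brightest probe sets in the shifted stretch, those of LINC02361 and P2RX2 were near 0, and that of ZNF891 was as low as its bright neighbours.

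**Figure D4:**
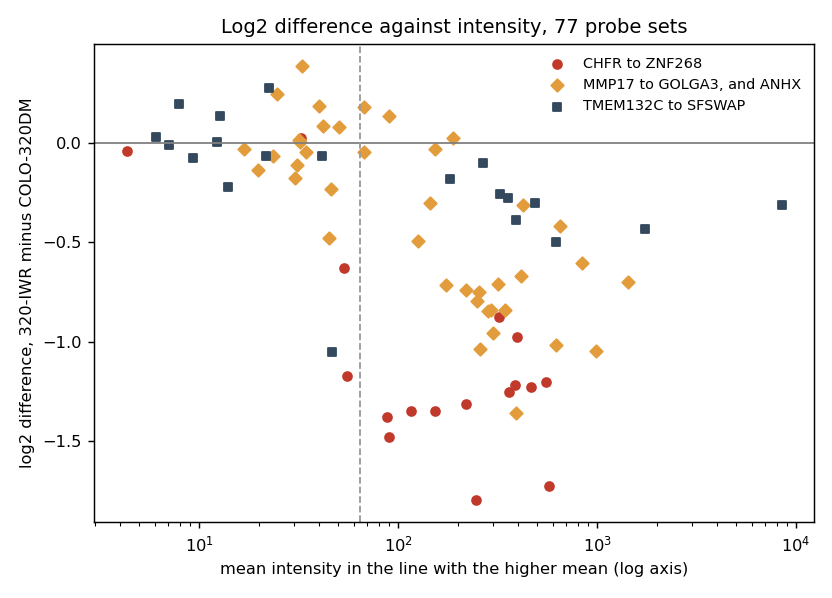
Log2 difference, 320-IWR minus COLO-320DM, of the 77 probe sets against their mean intensity in the line with the higher mean, on a log axis, with the dashed line at 64. Circles are CHFR to ZNF268, diamonds the other genes from MMP17 on and squares TMEM132C to SFSWAP. Left of the line most symbols lie near 0, and right of it the bright probe sets from CHFR to ZNF268 have a median of -1.31 and those from TMEM132C to SFSWAP a median of -0.30. Some circles right of the line, such as those of ZNF10, reached it in COLO-320DM alone.

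The genes that work with these members elsewhere in the genome lay near the median of all genes. The 12 lists of partners held 221 measured genes, with a median log2 difference of 0.08 against 0.02 over all genes. Limma called 0 of the 221 at an adjusted p under 0.05 with a 2-fold limit, where 0.592% of all genes were called. At that share few calls could arise among 221 genes, so nothing is read from the 0. An unadjusted p under 0.05 was found for 26 of them (11.8%), against 12.3% of all genes. Beside EP400, the 17 genes of the TIP60-EP400 complex had a median of -0.01, with the largest differences at ING3 (0.55 ± 0.09) and KAT5 (0.52 ± 0.07), the acetyltransferase of the complex. Beside POLE, the 29 genes of the DNA replication machinery had a median of 0.07, and the catalytic subunit of polymerase alpha, POLA1, had 465 and 454 in 320-IWR cells, against 759.6 and 778 in COLO-320DM cells, a difference of -0.74 ± 0.02. GINS3 of the replicative helicase was at -0.63 ± 0.36.

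Beside DDX51 and NOC4L, the 41 measured ribosome assembly factors had a median of 0.20, and 3 of them had a value below 0, UTP3 at -0.25 ± 0.12, IMP4 at -0.05 ± 0.17 and UTP20 at -0.05 ± 0.71, named after their values were seen. The helicase DDX49 was at 0.81 ± 0.26 and HEATR1 at 0.50 ± 0.27. Beside RAN, the 29 measured genes of the Ran transport cycle had a median of 0.10, with TNPO3 at 0.55 ± 0.25 and TNPO2, a nuclear import receptor, at 0.54 ± 0.19. Beside ULK1, the 15 genes of autophagy initiation had a median of 0.14, with WIPI1 at -1.36 ± 0.53 and ATG13, which binds ULK1, at 0.45 ± 0.10. Beside PUS1, the 11 measured pseudouridine synthases had a median of 0.09, and RPUSD3 and RPUSD2 were at 0.23 ± 0.07 and 0.21 ± 0.21.

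Beside the zinc finger genes, the 12 KRAB corepressor genes had a median of -0.12. TRIM28, the corepressor that binds the KRAB domain, had 1959 and 2964 in 320-IWR cells, against 1353 and 2153 in COLO-320DM cells, a difference of 0.50 ± 0.45 with overlapping arrays, and CBX5, which encodes a heterochromatin protein, was at -0.86 ± 0.60. Beside CHFR and ANKLE2, the 20 genes of mitotic entry and the nuclear envelope had a median of 0.02, with BANF1 at 0.67 ± 0.75 and LMNB2 at 0.53 ± 0.21. The 11 measured partners of PGAM5 had a median of -0.09, with the mitophagy receptor FUNDC1 at -0.90 ± 0.25 and the kinase MAP3K5 at 0.88 ± 0.55. The 14 golgins had a median of -0.07, with GCC1 at 0.55 ± 0.05 and GOLGB1 at -0.36 ± 0.34, the 16 measured GALNT genes 0.00, with GALNT7 at -0.80 ± 0.19 and GALNT14 at 0.70 ± 0.57, and the 6 P2X receptors -0.06, with P2RX4 at -0.45 ± 0.19 and P2RX5 at -0.14 ± 0.12. In each of the 12 lists the count called was 0, and the lists were described by counts and medians with no set test.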

How the data were processed

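Probe set intensities of 4 U133 Plus 2.0 GeneChips were deposited by the authors on a linear scale (lowest 3.51, highest 22475). The submitters' processing notes name RMA without a version, and the study's methods name GeneSpring GX for normalization. Each array was assigned to 320-IWR or COLO-320DM by its label.

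The log2 intensity (floor of 1) was compared between the lines with limma 3.58.1 in R 4.3.3 (lmFit and eBayes, the line as the only term). Of 54675 probe sets, 62 controls were left out. Calls needed an adjusted p (Benjamini-Hochberg over all 54613 probe sets) under 0.05 and at least a 2-fold difference. The supplied annotation gave 41091 probe sets 1 symbol, 1801 several and 11721 none, and a gene was read from its brightest probe set with 1 symbol. Gene order came from RefSeq's gene table of GRCh38.p14. The split of the list minimized squared deviations with at least 3 genes a side. Promoters were searched in Python 3.11.15. The fit was tested on simulated data.

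The 36 genes and the lists were chosen with earlier results of these data known. All 36 are accounted for, with values by array where the brightest probe set was bright and on either side of the split. Partner genes are named when called, or otherwise the 2 with the largest difference in a list. Each array was left out in turn, and further alternatives were cyclic loess, the replicate number as a block, arrays set to equal medians, removal of dim probe sets, a trended robust prior, an adjusted p under 0.01, no fold limit, a gene's mean over its probe sets, removal of probe sets with _x_at or _s_at names, arithmetic means, absolute deviations and 60 more genes in the split. A line left with 1 array was assumed to vary like the other. Protein sequences were not used here.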

Additional observations from a re-analysis of the deposited data

How the results depend on the processing

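The median log2 difference from MMP17 to ANHX (-0.78) ran from -1.01 to -0.68 when each array was left out in turn, and stayed below 0 under every alternative run. That from TMEM132C to SFSWAP (-0.07) ran from -0.17 to -0.11 with an array left out and was -0.35 with dim probe sets removed, which leaves its 4 bright genes. The split lay after 22 to 27 of the 36 genes under the alternatives that keep all 36, after ANKLE2, gene 26 of the 36, with dim probe sets removed or without probe sets of _x_at and _s_at names, and after 11 genes with the 60 preceding genes added. Of the 77 probe sets, limma called 4, 0 whichever array was left out, 7 with equal array medians, 6 of 47 with dim probe sets removed, 1 with a trended robust prior, 0 at an adjusted p under 0.01, and 4 each with cyclic loess and with no fold limit. Over all probe sets those settings called 202, then 0 to 63, 238, 217, 169, 43, 250 and 202. With the replicate block, the replicate number as a second term, 13 of the 77 and 576 of all probe sets were called. The labels do not say that a number marks a shared day or batch, and with 2 pairs the correlation of deviations, 0.66 over all probe sets, is a hint from the data and not the design. Of the 36 genes 12 changed sign under some alternative, and among the bright ones these were MMP17, NOC4L, MUC8, PGAM5 and ANHX. Of 346 alternative values of single genes, 330 moved by less than the spread of the arrays. With 1 of the 2 arrays of a line left out, a gene read from the same probe set could not move beyond that spread. The values with an array left out therefore say nothing about robustness, and nothing is read from the count. The number of arrays limits the precision, and the distance of a dim value from background is unknown.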

Other observations

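Between TMEM132C and ANHX, 6 other genes have a probe set of their own. FZD10, a Wnt receptor of the Frizzled family, was dim, with 9.69 and 7.28 in 320-IWR cells, against 44.9 and 13.2 in COLO-320DM cells, a log2 difference of -1.54 ± 0.91 (standard error, n = 2 a line). The dim, non-coding FZD10-AS1, TMEM132D-AS1 and TMEM132D-AS2 were at -0.20, -0.14 and -0.10, and LINC02415, also dim, was at 0.00. ZNF84-DT, which starts beside ZNF84 inside the zinc finger cluster, was bright. It had 72.8 and 77.7 in 320-IWR cells, against 74.5 and 85.0 in COLO-320DM cells, a difference of -0.08 ± 0.11 with overlapping arrays. Not every bright gene measured in that cluster was thus lower on both 320-IWR arrays.

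The 14 bright genes from ULK1 to GOLGA3 moved together between the replicates of a line. Replicate 2 was above replicate 1 in both lines for 10 of the 14 (71.4%), against 34.5% of all probe sets. The median of replicate 2 minus replicate 1 was 0.27 on the log2 scale in 320-IWR and 0.30 in COLO-320DM, against 0.00 in each line over all probe sets. The correlation of deviations was 0.93 over the 14 genes and 0.66 over all probe sets. All probe sets include dim ones, so they are not a like set, and the values over bright genes were not computed. The stretch was chosen after its values were seen, and replicates of a line have no order, so this is given as values with no test.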
